A study of Mus musculus with 2 samples.

Results

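The genes described here encode MHC class I molecules and the machinery that loads them with peptide: the light chain gene B2m, the classical heavy chain genes H2-K1 and H2-D1, the non-classical heavy chain genes H2-T23 and H2-M3, the peptide transporter genes Tap1 and Tap2, and the loading chaperone gene Tapbp. They were taken by symbol from the platform annotation, and the 8 genes had 28 of the 22626 non-control probe sets on the array, 23 with a single symbol and 5 with several. Colon RNA was compared between mice carrying an IL-9 transgene (sample title Tg5) and wild-type mice, whose label names the FVB strain while the series design writes TVB. IL-9 is a cytokine of type 2 immunity. Each genotype was 1 array of RNA pooled from pieces of distal colon of 4 mice, bred free of specific pathogens. The ages and sexes of the mice and the promoter that drives the transgene are not given in the sources used here.

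An MHC class I molecule is a heavy chain bound to β2-microglobulin and a short peptide, and nearly all nucleated cells carry it on their surface for CD8 T cells to inspect. Peptides are cut in the cytosol by the proteasome, pumped into the endoplasmic reticulum by the Tap1-Tap2 transporter, and fitted to empty heavy chains by tapasin, the product of Tapbp, with calreticulin and the disulfide isomerase Pdia3. Interferons, above all interferon-γ, are known to raise these genes together with the immunoproteasome subunits. In the gut both epithelial cells and leukocytes carry class I.

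Each value is a MAS5 intensity on a linear scale, and probes bind with unequal strength, so an intensity shows the level of a transcript only relative to the same probe set on the other array. Brightness is used across probe sets only to choose the one that stands for a gene, to set the floor and intensity ranges, and in sums over marker lists. Intensities below a floor of 19.8 were set to the floor, and a probe set or gene above it on at least 1 array is called measured. With 1 array per genotype there is no spread between mice or arrays and no test, so every difference below is a description of 2 pools. As a partial yardstick, the log2 ratios of different probe sets of the same gene had a pooled SD of 0.28 over 2847 genes. This technical spread comes from the same arrays, so it holds no variation between animals and no error between arrays. The middle 95% of all 8346 measured genes ran from -0.61 to 0.70 in log2 ratio of transgenic over wild type, around a median of 0.04. Il9, the transgene's own cytokine, had 862 in the transgenic pool, against 5.14 in the wild-type pool, at least 43.6-fold higher. All 9 epithelial marker genes, among them Cdh1, Krt18 and the colonic anion exchanger gene Slc26a3, exceeded the floor in both pools.

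Most class I and loading genes were higher in the transgenic pool by a small amount. Every one of the 7 genes with a single-symbol probe set had a positive log2 ratio by its brightest such probe set, where 56.0% of all measured genes were above 0. The median over the 7 genes was 0.34. Of the 7, 6 were above the floor in both pools. Tap1 passed the floor only in the transgenic pool, so the floor itself sets its direction. Only Tap1 reached 2-fold, as did 0.767% of all measured genes, and 0 of the 7 reached 2-fold downwards, against 0.611% of all. At 1.5-fold, Tap1 and H2-M3 were higher, against 4.09% of all measured genes, and 0 of the 7 were lower, against 2.85%. Of the 23 single-symbol probe sets 16 were measured, with a median log2 ratio of 0.32. Of these 14 were higher and 2 lower in the transgenic pool, where 53.6% of all measured probe sets were above 0. Of the 16, 2 reached 2-fold upwards, that of Tap1 among them, against 0.792% of all measured probe sets. Counting only the 14 probe sets above the floor in both pools, 13 were higher. Several are of the same gene, and most of those of H2-K1 and H2-D1 can share signal, so they are not separate observations. The remaining 7 single-symbol probe sets, 4 of H2-D1 and 3 of Tap1, were below the floor on both arrays.

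**Figure D1:**
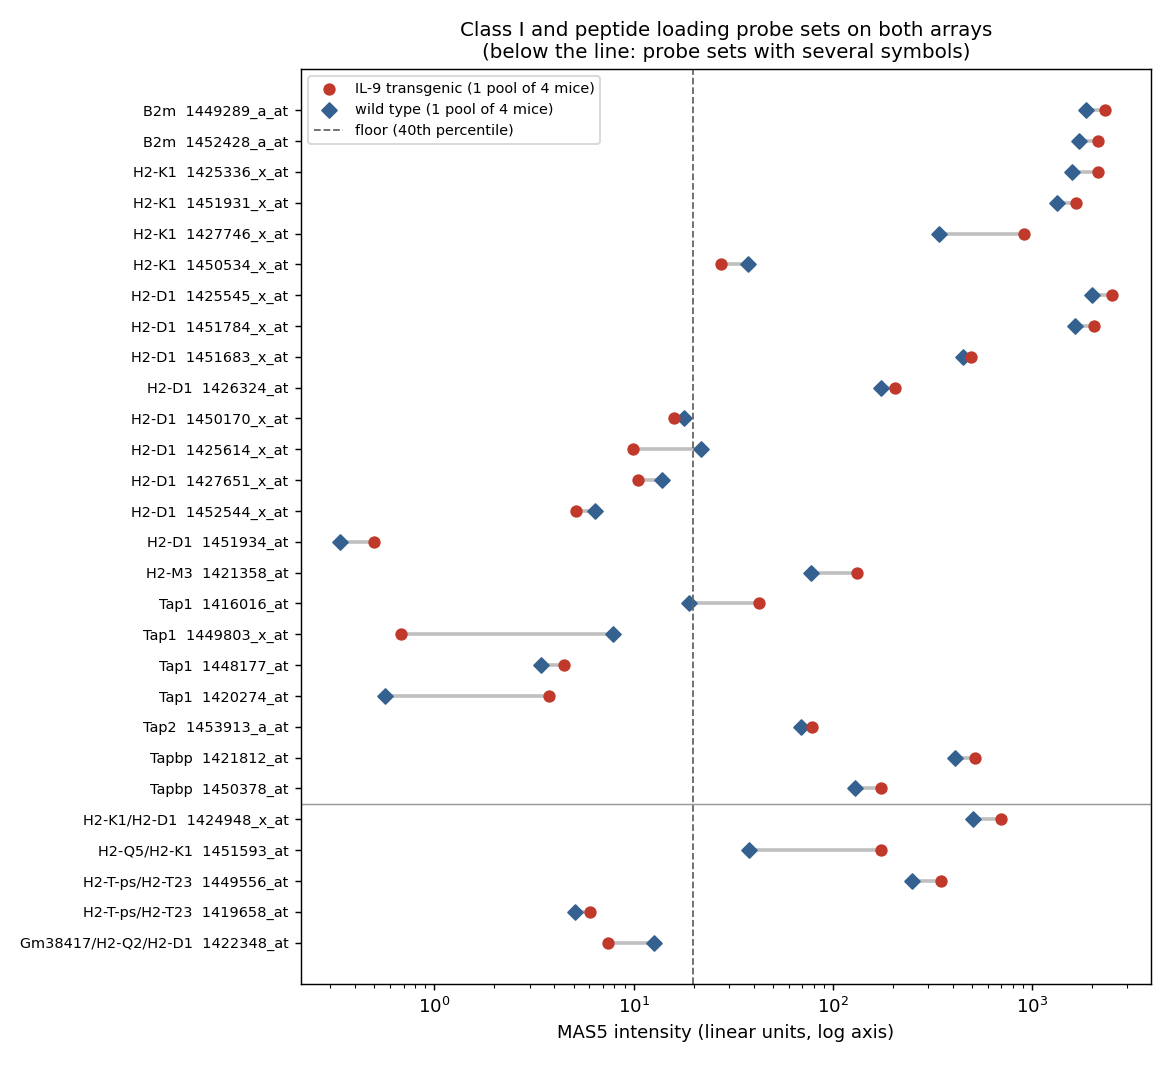
MAS5 intensity (log axis) of each of the 28 probe sets in the IL-9 transgenic pool (circles) and the wild-type pool (diamonds), 1 array each, with the floor of 19.8 dashed. Most pairs above the floor lie close together with the transgenic pool to the right, and H2-K1 1427746_x_at (912 against 340) and H2-Q5/H2-K1 1451593_at (175 against 38.1) are set wide apart.

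The promoters of B2m, H2-K1 and H2-D1, whose main probe sets had nearly equal ratios, and of Tap1, which had the largest ratio of the 7 genes, are shown because class I and light chain genes are known to share control elements. Sequences are RefSeq windows of build GRCm38.p6, from C57BL/6J, of 250 bases before the start site and 50 from it on, 5′ to 3′ on the gene's strand. A window was found for 7 of the 8 genes, all but Tap2, and H2-K1 has 2 that start 14 bases apart, of which the upstream one is given. Capitals mark matches to an NF-κB site, and in B2m also the core of an interferon-stimulated response element (GAAA, any 2 bases, GAAA); both strands were searched and overlapping matches run together. The windows are chr2:122147437-122147736 on the plus strand for B2m, chr17:34000298-34000597 on the minus strand for H2-K1, chr17:35262844-35263143 on the plus strand for H2-D1 and chr17:34187306-34187605 on the plus strand for Tap1.
B2m: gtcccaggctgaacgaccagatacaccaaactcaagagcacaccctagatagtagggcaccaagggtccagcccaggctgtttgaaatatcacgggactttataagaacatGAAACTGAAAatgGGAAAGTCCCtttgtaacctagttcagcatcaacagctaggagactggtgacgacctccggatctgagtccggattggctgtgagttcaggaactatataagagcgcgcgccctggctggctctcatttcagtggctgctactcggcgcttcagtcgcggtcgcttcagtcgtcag
H2-K1: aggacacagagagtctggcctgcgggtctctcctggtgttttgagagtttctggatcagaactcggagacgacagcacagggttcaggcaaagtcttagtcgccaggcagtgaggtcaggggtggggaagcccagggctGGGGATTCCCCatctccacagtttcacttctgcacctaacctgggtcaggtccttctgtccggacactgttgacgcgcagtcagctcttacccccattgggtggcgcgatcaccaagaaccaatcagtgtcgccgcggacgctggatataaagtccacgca
H2-D1: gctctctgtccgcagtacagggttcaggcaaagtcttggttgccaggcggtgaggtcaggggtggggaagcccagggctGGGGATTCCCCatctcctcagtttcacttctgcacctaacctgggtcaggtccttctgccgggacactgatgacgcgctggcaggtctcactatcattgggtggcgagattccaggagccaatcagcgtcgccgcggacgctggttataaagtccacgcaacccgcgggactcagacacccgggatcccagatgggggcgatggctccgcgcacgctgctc
Tap1: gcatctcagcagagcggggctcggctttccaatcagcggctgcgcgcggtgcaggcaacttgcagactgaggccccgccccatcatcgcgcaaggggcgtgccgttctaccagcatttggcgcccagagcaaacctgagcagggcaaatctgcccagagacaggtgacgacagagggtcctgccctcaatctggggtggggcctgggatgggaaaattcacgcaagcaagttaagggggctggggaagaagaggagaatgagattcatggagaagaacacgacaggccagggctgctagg

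The H2-K1 and H2-D1 windows hold the same run of 11 capitals, which begins at -111 in H2-K1 and -171 in H2-D1 relative to the start site. In B2m the response element core begins at -139 and the NF-κB match at -126. An NF-κB match was found in the windows of 4 of 7 genes (B2m, H2-K1, H2-D1 and H2-M3), against 8.46% of all 32851 windows of this length. The response element core was found in 2 of 7 (B2m and H2-T23), against 3.44% of all windows, and a gamma-activated site (TTC, any 3 bases, GAA) in 1 of 7 (H2-M3), against 8.30%. All 7 held CCAAT on either strand, as did 37.4% of all windows. The Tap1 window held none of these but CCAAT. It overlaps by 275 bases the window of Psmb9, which is read from the opposite strand, so that 225 bases lie between the start sites of Tap1 and of this immunoproteasome subunit gene. A match describes letters in a window and not a site in use. Each motif was searched by a fixed pattern, so a window without a match may still hold a variant of the element.

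B2m, the invariant light chain of every classical class I molecule, was slightly higher in the transgenic pool by both of its probe sets. Probe set 1449289_a_at had 2333 in the transgenic pool, against 1867 in the wild-type pool. Probe set 1452428_a_at had 2141 in the transgenic pool, against 1721 in the wild-type pool. The log2 ratios were 0.32 and 0.32, 1.25-fold and 1.24-fold, and differed by far less than the spread between probe sets of a gene. A ratio of this size exceeded those of 85.3% of all measured genes. Few bright genes had larger ratios, and among the 322 genes with a mean intensity of at least 1000 it exceeded 94.7%.

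The classical heavy chain genes H2-K1 and H2-D1 encode the polymorphic chains that present peptide to CD8 T cells. Their transcripts are near-identical in long stretches, and 11 of their 13 single-symbol probe sets have names ending in x_at, the maker's mark for probes that can also bind similar transcripts. Signal can therefore be shared between these genes and other class I genes. The inbred strain FVB also carries another H2 haplotype than C57BL/6J, the strain of the reference genome, and how well each probe matches the alleles of these mice was not tested.

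H2-D1 had 4 probe sets that exceeded the floor in both pools, and all 4 were slightly higher in the transgenic pool. Probe set 1425545_x_at, the brightest, had 2516 in the transgenic pool, against 1992 in the wild-type pool, and 1451784_x_at had 2055 in the transgenic pool, against 1648 in the wild-type pool. These are 1.26-fold and 1.25-fold, close to the ratio of B2m. Probe set 1451683_x_at had 496 in the transgenic pool and 448 in the wild-type pool, and 1426324_at, the one of the 4 whose name does not end in x_at, had 206 in the transgenic pool and 174 in the wild-type pool. The log2 ratios of the 4 ran from 0.15 to 0.34, with a median of 0.28 and an SD of 0.086. Probe set 1425614_x_at was above the floor only in wild type, at 9.89 in the transgenic pool and 21.8 in the wild-type pool, at least 1.10-fold lower. The other 4 stayed below the floor in both pools, at up to 16.0 in the transgenic pool and 17.9 in the wild-type pool.

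H2-K1 had 4 single-symbol probe sets, all above the floor in both pools, and they did not move alike. Probe set 1425336_x_at, the brightest, had 2132 in the transgenic pool, against 1590 in the wild-type pool, 1.34-fold higher, and 1451931_x_at had 1663 in the transgenic pool, against 1333 in the wild-type pool, 1.25-fold higher. Probe set 1427746_x_at had 912 in the transgenic pool, against 340 in the wild-type pool, 2.69-fold higher. Probe set 1450534_x_at had 27.4 in the transgenic pool, against 37.5 in the wild-type pool, 1.37-fold lower. The log2 ratios thus ran from -0.46 to 1.43 with a median of 0.37, and their SD of 0.77 was larger than that of 99.0% of the 2847 genes with several probe sets. The ratio of 1427746_x_at exceeded 99.8% of all measured genes. The 2 bright probe sets lay with B2m and H2-D1, so the size of the H2-K1 difference depends on which probe set is read.

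Probe sets annotated to several class I genes are given apart. Probe set 1424948_x_at, annotated to H2-K1 and H2-D1, had 700 in the transgenic pool, against 505 in the wild-type pool, a log2 ratio of 0.47. Probe set 1451593_at, annotated to H2-Q5 and H2-K1, had 175 in the transgenic pool, against 38.1 in the wild-type pool, 4.61-fold higher and the largest ratio of the 28. H2-Q5 belongs to the Q region, a group of class I genes close to H2-D1. The single-symbol probe set of H2-Q5, 1450582_at, stayed below the floor in both pools, at 14.0 in the transgenic pool and 13.9 in the wild-type pool. Probe set 1422348_at, annotated to Gm38417, H2-Q2 and H2-D1, stayed below the floor in both pools, at 7.46 in the transgenic pool and 12.6 in the wild-type pool.

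**Figure D2:**
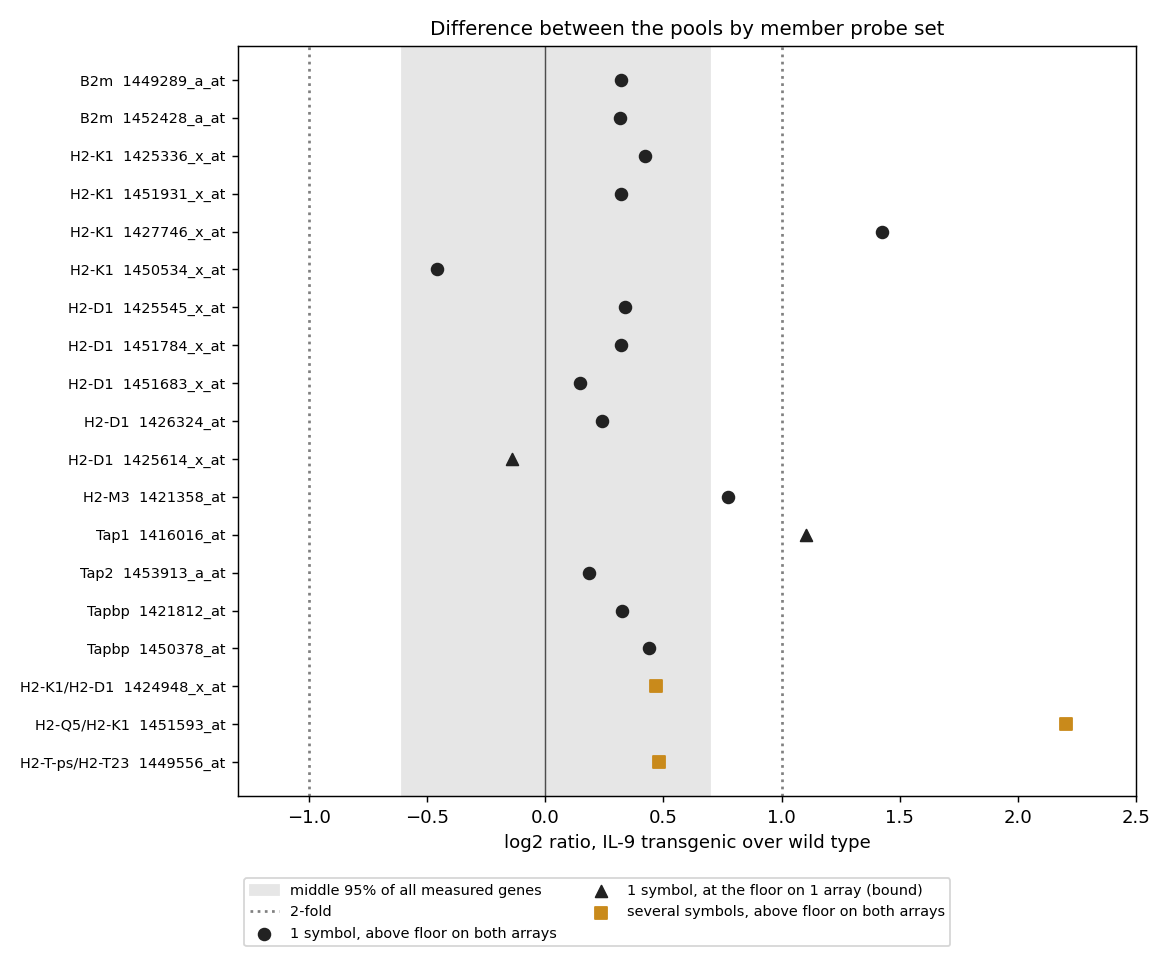
Log2 ratio of the IL-9 transgenic over the wild-type pool for the 19 probe sets measured on at least 1 array, with triangles for bounds, squares for probe sets with several symbols, the middle 95% of all measured genes in grey and 2-fold dotted. Most points lie between 0.15 and 0.48, while H2-K1 1427746_x_at (1.43), Tap1 (1.10) and H2-Q5/H2-K1 1451593_at (2.20) lie beyond 2-fold.

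The non-classical heavy chain genes were also higher in the transgenic pool. H2-M3, which presents peptides that start with formyl-methionine, as bacterial and mitochondrial proteins do, has 1 probe set on the array, 1421358_at. It had 132 in the transgenic pool, against 77.5 in the wild-type pool, 1.71-fold higher. That log2 ratio of 0.77 exceeded 98.2% of all measured genes. H2-T23 encodes Qa-1, which displays leader peptides of other class I chains to the Klrd1-Klrc1 receptor of NK cells, and both of its probe sets are also annotated to the pseudogene H2-T-ps. Probe set 1449556_at had 348 in the transgenic pool, against 249 in the wild-type pool, 1.40-fold higher. The other, 1419658_at, stayed below the floor in both pools, at 6.05 in the transgenic pool and 5.10 in the wild-type pool.

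Among the loading genes, the transporter subunit gene Tap1 had the largest ratio, and its wild-type value was below the floor. Probe set 1416016_at had 42.5 in the transgenic pool, against 19.0 in the wild-type pool, which lies just under the floor, so Tap1 was at least 2.15-fold higher. Its 3 other probe sets stayed below the floor in both pools, at up to 4.48 in the transgenic pool and 7.84 in the wild-type pool. With the floor raised to the 60th percentile of intensities Tap1 was no longer measured. Tap2, the other subunit of the transporter, had 78.7 in the transgenic pool, against 69.3 in the wild-type pool, 1.14-fold higher, a ratio within the spread between probe sets of a gene. The main log2 ratios of B2m, H2-D1 and Tapbp, at 0.32, 0.34 and 0.32, were only slightly beyond that spread (SD 0.28). They also lay inside the middle 95% of all measured genes.

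Tapbp encodes tapasin, which holds empty class I molecules at the transporter until a peptide fits. Probe set 1421812_at had 516 in the transgenic pool, against 412 in the wild-type pool, 1.25-fold higher. Probe set 1450378_at had 175 in the transgenic pool, against 129 in the wild-type pool, 1.35-fold higher. Both were higher in the transgenic pool, with log2 ratios of 0.32 and 0.44 that exceeded 85.4% and 91.7% of all measured genes.

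**Figure D3:**
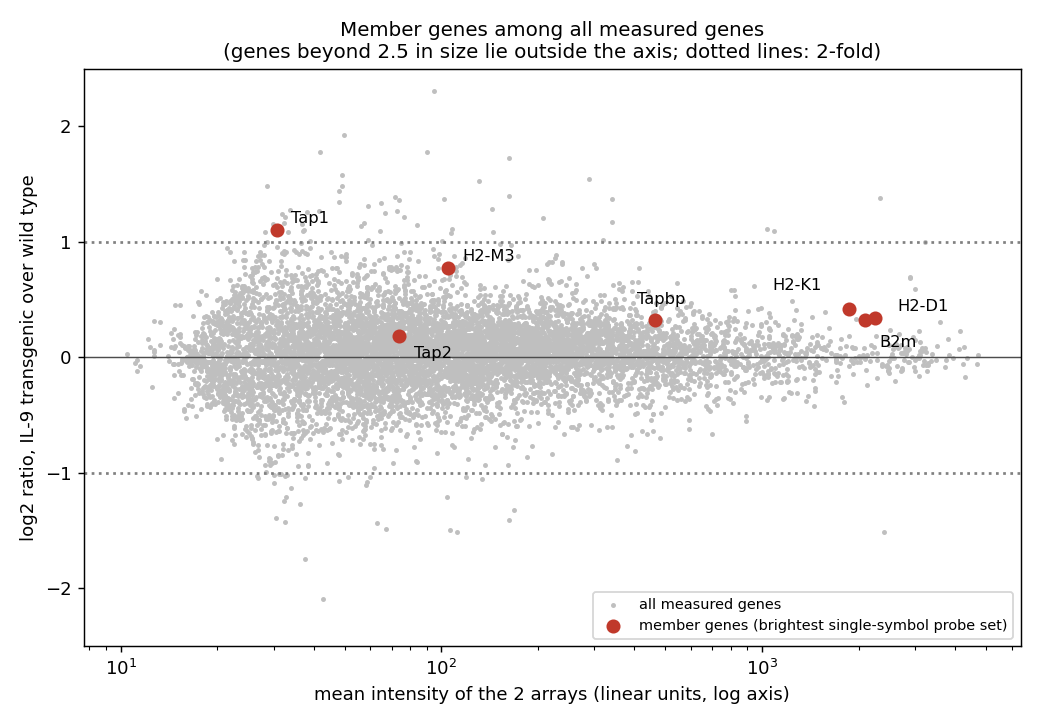
Log2 ratio of the IL-9 transgenic over the wild-type pool against the mean intensity of both arrays (log axis) for all 8346 measured genes (grey) and the 7 class I and loading genes with a single-symbol probe set (red), with 27 genes outside the axis. All 7 lie above 0, Tap1 as a bound with its wild-type value set to the floor. B2m, H2-K1 and H2-D1 lie at 0.32 to 0.42 among the brightest genes.

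The genes that make and trim the peptides were divided. Immunoproteasome subunits, which replace the constitutive ones and favour peptides that fit class I, were higher in the transgenic pool, and 2 of 5 measured genes of the list reached 2-fold. Psmb9 had 204 in the transgenic pool, against 83.7 in the wild-type pool, 2.43-fold higher, and Psmb8 had 290 in the transgenic pool, against 126 in the wild-type pool, 2.30-fold higher. The third subunit gene, Psmb10, had 406 in the transgenic pool, against 292 in the wild-type pool, a log2 ratio of 0.47, and the proteasome activator genes Psme1 and Psme3 had 0.27 and 0.13, with -0.26 by the other probe set of Psme3. The constitutive subunits they replace, Psmb5, Psmb6 and Psmb7, had log2 ratios of 0.19, -0.17 and -0.00. Of 6 cytosolic peptidases, which trim or destroy peptides, 0 reached 2-fold in either direction, and the median was 0.11, with Thop1 at 0.31, Blmh and Nrd1 at 0.22 each, Lap3 at 0.01, Tpp2 at -0.03 and Npepps at -0.05. Other probe sets of these genes disagreed, with Nrd1 at -0.58, Npepps at -0.56 and Tpp2 from -0.89 to 0.42, and averaging each gene's probe sets turned the median to -0.07.

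Chaperones of the loading complex and the endoplasmic reticulum had small positive ratios. Of 12 measured genes, Tap1, Tap2 and Tapbp among them, 10 were higher and 2 lower. Only Tap1 reached 2-fold, as a bound. The median log2 ratio was 0.23, against 0.04 for all measured genes. Hspa5, counted as higher at 0.19, had -0.63 by its other probe set. The other probe sets of Canx, counted as lower, ran from -0.22 to 0.18, while those of Calr and Tapbp kept their sign. Pdia6, a disulfide isomerase, had 0.39 and Tapbpl, a tapasin-related peptide editor, 0.34. Erap1, the aminopeptidase that trims peptides after transport, was the largest in the other direction, with 79.3 in the transgenic pool, against 104 in the wild-type pool, a log2 ratio of -0.38. Calr and Pdia3, partners of tapasin in the loading complex, had 0.27 and 0.28.

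Class I relatives went both ways. Of 12 measured genes in the list of class I chains and related molecules, which includes B2m, H2-K1, H2-D1 and H2-M3, 9 were higher and 3 lower, 0 reached 2-fold, and the median was 0.32. That median was 0.17 with the floor at the 20th percentile, without a floor, or averaging a gene's probe sets. It was 0.20 without x_at, a_at, s_at and similar probe sets. H2-T3, which encodes the thymus leukaemia antigen found on intestinal epithelium, had 85.7 in the transgenic pool, against 47.1 in the wild-type pool, a log2 ratio of 0.86, but its other probe set had 0.09. Mr1, which shows bacterial vitamin B metabolites to T cells, had 0.57 and by its other probe set -0.29. The lower genes were H2-Bl, at least 1.34-fold, H2-Q2 at -0.37 and Cd1d1, the lipid-presenting chain, at -0.12 and by its other probe set -0.41. The other B2m partners Hfe and Fcgrt, the neonatal Fc receptor, had 0.32 and 0.17.

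Regulators of class I genes differed little, and their receptors were hardly measured. Of 19 measured regulator genes 13 were higher and 6 lower, 0 reached 2-fold in either direction, and the median was 0.10. Rfx5, a subunit of the factor that binds MHC promoters, had 0.52, Stat2 0.42, Irf8 0.39 and Nfya -0.32; the other probe set of Irf8 had -0.31 and that of Nfya 0.06. Irf1, an interferon-induced activator of Tap1 and Psmb9, had 277 in the transgenic pool and 272 in the wild-type pool. Of 11 receptor genes with a single-symbol probe set, 10 were below the floor on both arrays, among them the CD8 chains Cd8a and Cd8b1 and the NK receptor gene Klrc1, and Klrd1 was at least 1.41-fold higher.

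MHC class II genes present peptides from outside the cell and are made mainly by professional antigen-presenting cells. By the brightest probe set of each gene, they differed by more than the class I and loading genes. Of 10 measured class II presentation genes 4 reached 2-fold and the median was 0.74, against 0.34 over the 7 class I and loading genes. H2-DMa, the peptide editor of class II, had 139 in the transgenic pool, against 40.6 in the wild-type pool, a log2 ratio of 1.78. The class II chain genes H2-Ab1 and H2-Aa had 1.37 and 1.10, and Cd74, the invariant chain that guides class II through the cell, had 1.11. The gap depended on the probe set rule. A rule without x_at, a_at, s_at and similar probe sets gave a class II median of 0.56. It gave 0.55 for the 4 class I and loading genes left. Such names mark probe sets that can bind several transcripts, which need not be of other genes. The rule drops all single-symbol probe sets of B2m, H2-K1 and Tap2, and the measured one of Cd74. Under that rule 1 class II gene reached 2-fold. The difference between the class I and class II medians could not be tested with 1 array per genotype.

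**Figure D4:**
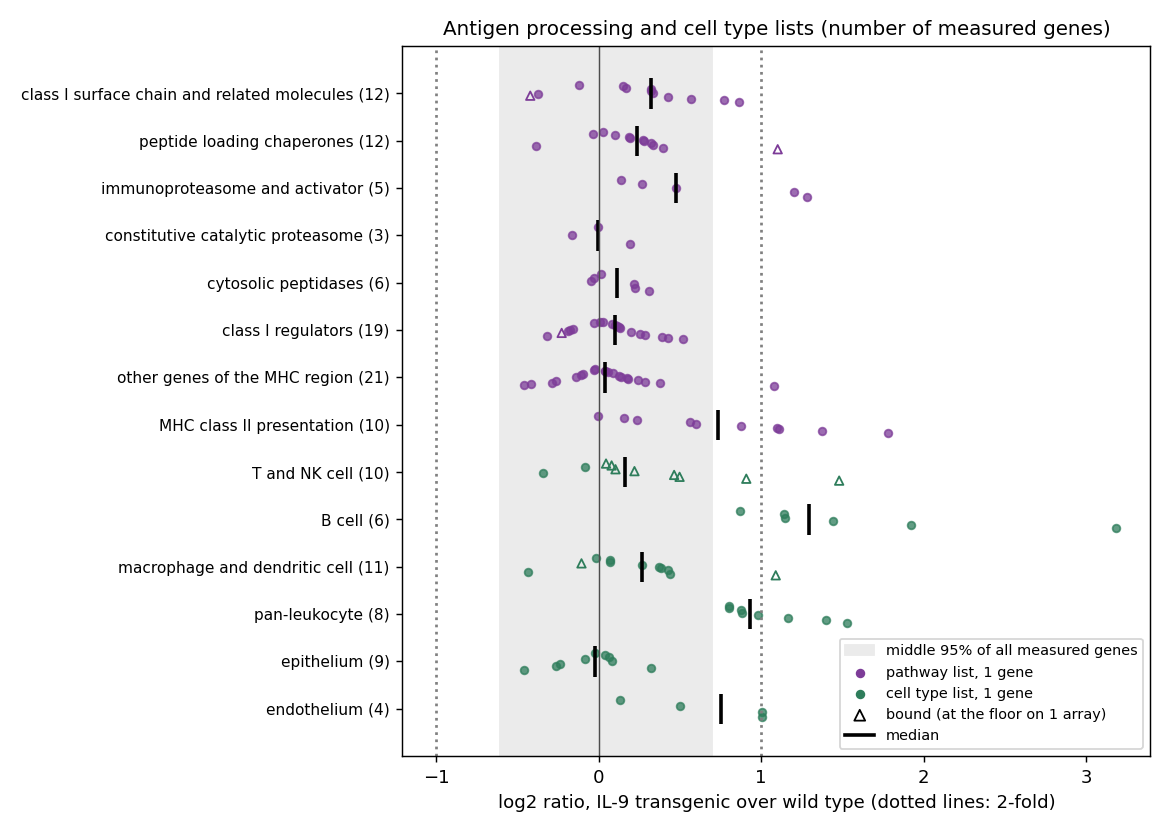
Log2 ratio of the IL-9 transgenic over the wild-type pool for each measured gene of 8 antigen presentation and genome region lists (purple) and 6 cell type lists (green), with open triangles for bounds, black bars for medians and the middle 95% of all measured genes in grey. Class II, B cell, pan-leukocyte and endothelial genes lie furthest to the right, and constitutive proteasome, MHC region and epithelial genes lie around 0.

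Pan-leukocyte and B cell markers had higher values in the transgenic pool, as the class I genes did. All 8 pan-leukocyte genes were measured and higher, 3 of them at least 2-fold, with a summed intensity of 1547 in the transgenic pool, against 761 in the wild-type pool, and a median log2 ratio of 0.93. The largest were Arhgdib at 1.53, Coro1a at 1.40, Rac2 at 1.17 and Cd53 at 0.98. All 6 measured B cell genes were higher, 5 of them at least 2-fold, with a summed intensity of 997 in the transgenic pool and 244 in the wild-type pool over 8 genes, of which Blk and Pax5 were below the floor on both arrays. Their median was 1.29, and the values ran from 0.87 in Cd79b, through Ms4a1, Pou2af1, Cd22 and Cd79a, to 3.19 in Ighm, the immunoglobulin μ chain gene, which had 570 in the transgenic pool, against 62.6 in the wild-type pool. Other probe sets of Ighm ran from 0.23 to 4.29, and that of Cd22 had 0.06. T and NK cell genes summed to 338 in the transgenic pool and 192 in the wild-type pool over 14 genes, a sum that includes values below the floor and to which the granzyme genes Gzmb (55.2 in the transgenic pool, 2.22 in the wild-type pool) and Gzma (37.1 in the transgenic pool, 6.62 in the wild-type pool) added the largest differences. The median was 0.16 over the 10 measured genes. The 8 with a higher value, Klrd1 and Cd3d among them, passed the floor only in the transgenic pool, so the floor itself sets their direction, and the 2 above it in both pools had lower values in the transgenic pool, Zap70 with -0.34 and Il7r with -0.08. Cd4, Cd8a, Cd247 and Nkg7 were below the floor on both arrays. Macrophage and dendritic cell genes summed to 2098 in the transgenic pool and 1797 in the wild-type pool over 12 genes, with 8 of 11 measured genes higher, a median of 0.27 and Itgam below the floor on both arrays. Itgax, at least 2.13-fold higher, passed the floor only in the transgenic pool, C1qc and C1qb had 0.44 and 0.42, and Adgre1 had -0.43. Other probe sets of C1qb ran from -0.32 to 0.34. Endothelial genes, also rich in class I, summed to 336 in the transgenic pool and 209 in the wild-type pool, with 4 of 4 measured genes higher (Plvap 1.01, Vwf 1.01, Pecam1 0.50 and Kdr 0.13), a median of 0.75, and Cdh5 and Tie1 below the floor on both arrays. Epithelial genes summed to 15910 in the transgenic pool and 16420 in the wild-type pool, with 4 of 9 genes higher and 5 lower, a median of -0.02, and Cdh1 (-0.46), Krt18 (0.32), Car1 (-0.26) and Slc26a3 (-0.24) as the largest ratios. The part of these cell types in the class I differences was not tested, and in whole tissue more cells of a type and more RNA per cell cannot be told apart. The pools also differed in exocrine pancreas genes, all 11 of which were lower by 2-fold or more in the transgenic pool, summing to 1673 in the transgenic pool and 28497 in the wild-type pool.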

How the data were processed

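RNA of distal colon was hybridised to Affymetrix arrays, 1 pool of 4 mice per genotype, per the series design and the labels. The authors' deposited value table holds 1 intensity per probe set and array, and the submitters' processing notes name MAS5; its version, its scaling target and detection calls are not given in the sources used here. Of 22690 probe sets, 64 controls were left out. The platform annotation gave 1 symbol to 20380, several to 691 and none to 1555. The brightest single-symbol probe set stood for its gene, which gave 12393 genes. Values below the 40th percentile of all intensities were set to it, then log2 ratios were taken with no further scaling, in Python 3.11.15 with pandas 2.3.3 and NumPy 2.4.6. The number of arrays limits the precision, and MAS5 makes ratios of low values unstable. No test was run. Calls past 2-fold were checked on simulated data with large changes in bright genes. That check does not cover differences as small as most of those described here, or values near the floor.

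Members and gene lists were chosen with earlier results of these data known. Genes named were the 8 members, all measured genes of lists with at most 6, and otherwise the 4 with the largest ratios. Others named were chosen after their values were seen. These were Calr, Pdia3, Hspa5, Canx, H2-Bl, H2-Q2, Cd1d1, Hfe, Fcgrt, Irf1, Zap70, Il7r, H2-Q5 and genes below the floor. Intensity ranges for comparison with bright genes were likewise chosen later. The alternatives were other scalings, floors, probe set rules and a 1.5-fold threshold. RefSeq promoters of GRCm38.p6 were searched for motifs.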

Additional observations from a re-analysis of the deposited data

How the results depend on the processing

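The log2 ratios of all 19 measured member probe sets kept their sign under each scaling and floor that measured them (median, quantile or loess normalization, with a loess span of 0.3; a 20th or 60th percentile floor; or a pseudocount of 0.735 in its place). That of H2-D1 1425614_x_at was -1.14 with the lower floor and -1.09 without one, past 2-fold, and that of 1451593_at was 1.67 with the higher floor. With the floor at the 60th percentile, 0 member genes and 0 loading chaperones reached 2-fold upwards, since Tap1 lay below that floor, and 0 genes of the MHC region list did. Over all 5975 genes measured with that floor, 29 were higher and 27 lower. With the floor at the 20th percentile, 202 were higher and 258 lower of 10809 measured genes, and 1 class I receptor gene was higher. Without a floor the counts were 655 and 800 of 12393 genes. In that setting 1 class I relative, 3 class I receptor genes and 2 genes of the MHC region were at least 2-fold higher. At 1.5-fold, 2 member genes and 2 class I relatives were higher, with 341 higher and 238 lower over all genes. Leaving out x_at, a_at, s_at and similar probe sets, 4 member genes were left with a median of 0.55, and 1 immunoproteasome and 1 class II gene reached 2-fold. Taking each gene's median over probe sets measured in both pools was chosen after the data were seen. It gave 0 member genes and 0 loading chaperones past 2-fold. Over all 7774 genes it gave 48 higher and 19 lower. Of class I relatives 2 were at least 2-fold lower with the 20th percentile floor and 2 without a floor, as were 1 receptor gene and 1 MHC region gene without it. The median of the class I relatives ran from 0.17 to 0.34 and that of the cytosolic peptidases from -0.07 to 0.11, lowest with the mean of all probe sets for the peptidases. The other counts past 2-fold stayed within 1.5 times. No replicate could be left out, and no paired analysis was possible because each genotype has 1 array.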

Other observations

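Other genes of the MHC region, on the same chromosome as H2-K1, H2-D1, Tap1 and Tapbp but with unrelated roles, mostly had ratios near 0. Of 21 measured genes 12 were higher and 9 lower in the transgenic pool, 1 reached 2-fold, and the median log2 ratio was 0.04, as for all measured genes. The exception was Ltb, the lymphotoxin-β gene of lymphoid tissue organisation, which had 45.1 in the transgenic pool, against 21.3 in the wild-type pool, 2.12-fold higher. Rxrb, a nuclear receptor gene, had -0.46, H2-Ke6 -0.42 and Bag6, a protein quality control gene, 0.38. A probe set annotated to both complement genes C4a and C4b, chosen after its value was seen, had 313 in the transgenic pool, against 131 in the wild-type pool.

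Further class I probe sets named here were chosen after their values were seen. Most of those named had higher values in the transgenic pool, and 1 had a lower value. They are a part of the further class I probe sets. H2-Q2 and H2-Bl, given above, were also lower. The probe sets of H2-Q10, H2-T24, H2-M9 and H2-M10.1, and 1439121_at of H2-T9, H2-T22 and H2-T10, were below the floor on both arrays. Probe set 1431008_at, annotated to H2-Q6 and H2-Q8, had 90.8 in the transgenic pool, against 31.4 in the wild-type pool, 2.89-fold higher, while 1451644_a_at, annotated to H2-Q6, H2-Q8 and H2-Q4, was below the floor on both arrays. Probe set 1418536_at, annotated to H2-Q7 and H2-Q9, had 53.4 in the transgenic pool and 36.4 in the wild-type pool. Probe set 1449875_s_at, annotated to H2-T9, H2-T10 and H2-T22, had 149 in the transgenic pool and 114 in the wild-type pool. The single-symbol probe set of H2-T18, 1460418_x_at, had 87.1 in the transgenic pool and 113 in the wild-type pool, while 1452547_s_at, annotated to H2-T3 and H2-T18, had 83.6 in the transgenic pool and 51.3 in the wild-type pool.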
